A study of Mus musculus with 10 samples.

Results

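Most of the genes described here encode proteins that carry out and steer pre-mRNA splicing: SR proteins, heterogeneous nuclear ribonucleoproteins (hnRNPs), the U2AF, SF3A and SF3B subunits, the proteins of the U1 and U2 small nuclear ribonucleoproteins (snRNPs), and the Sm and Lsm rings. Some Lsm genes act outside splicing, among them Lsm10 and Lsm14a, but are counted with the splicing genes throughout. They were chosen by symbol alone, as mouse genes that begin with Srsf, Hnrnp, Snrp, Sf3a, Sf3b or Lsm followed by a letter or digit, together with U2af1, U2af2, Tra2a and Tra2b, and named pseudogenes were left out. Of the 71 genes that met this rule, 70 were among the 18055 genes listed in at least 1 library and 69 were among the 14097 genes tested. The other two, Lsmem1 and Lsmem2, match the prefix by spelling only and encode membrane proteins. Lsmem2 was listed in no library. Lsmem1 was not listed in either Vehicle library, either PA library or 1 LA library and did not exceed 0.10 FPKM elsewhere, so it was not tested.

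RNA from primary hepatocytes of wild-type C57BL/6 mice was sequenced in 5 groups of 2 libraries. Vehicle cells received no fatty acid, PA cells received 200 μM palmitate for 24 h and LA cells received 12 μM linoleate for 24 h. In the PA+NTP and LA+NTP groups the same fatty acid followed 1 h of Neurotropin (NTP), an analgesic extract made from inflamed rabbit skin. All cells had been freed from liver by collagenase, plated on collagen and kept without serum overnight. The deposited totals ran from 13142588 to 60046937 estimated counts per library, lowest in PA replicate 1 and highest in LA+NTP replicate 2. Nothing in the labels says that the 2 libraries of a group came from separate animals or cultures, so the p-values measure only the spread between these libraries, which may be technical. In bulk RNA, fewer cells of a type and less RNA per cell cannot be told apart.

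As background, splicing begins when the U1 snRNP pairs with the start of an intron while U2AF marks its end, after which the U2 snRNP, held by SF3A and SF3B, settles on the branch point. SR proteins bind exons and favour their inclusion, whereas many hnRNPs favour skipping, so the balance between them sets which isoform a cell makes. SR and hnRNP genes are themselves spliced under their own control. In hepatocytes these factors act on the transcripts of metabolic as well as housekeeping genes.

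Splicing genes as a whole took a larger share of the transcriptome under either fatty acid, and a share near that of Vehicle when NTP came first. The summed FPKM (fragments per kilobase of transcript, scaled to the fragments of the library) of the 70 listed genes was 0.850% and 0.856% of all FPKM in the Vehicle libraries and 1.07% in each PA library. It was 0.900% and 0.914% under PA+NTP, 0.964% and 0.976% under LA, and 0.812% and 0.801% under LA+NTP. The PA and LA libraries were thus the highest, and they did not overlap with any other group. The 20 hnRNP genes made up most of the increase, from a mean of 0.425% ± 0.007 in Vehicle to 0.553% ± 0.002 under PA (SD, n = 2). Among the role groups the mean share of the SR genes was raised by the largest factor, 1.38 times Vehicle under PA and 1.32 times under LA, while that of the SF3A genes was 0.912 and 0.798 times Vehicle. With 2 libraries a group, an exact permutation test of 1 such share cannot give a two-sided p below 0.333, so none is given.

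**Figure D1:**
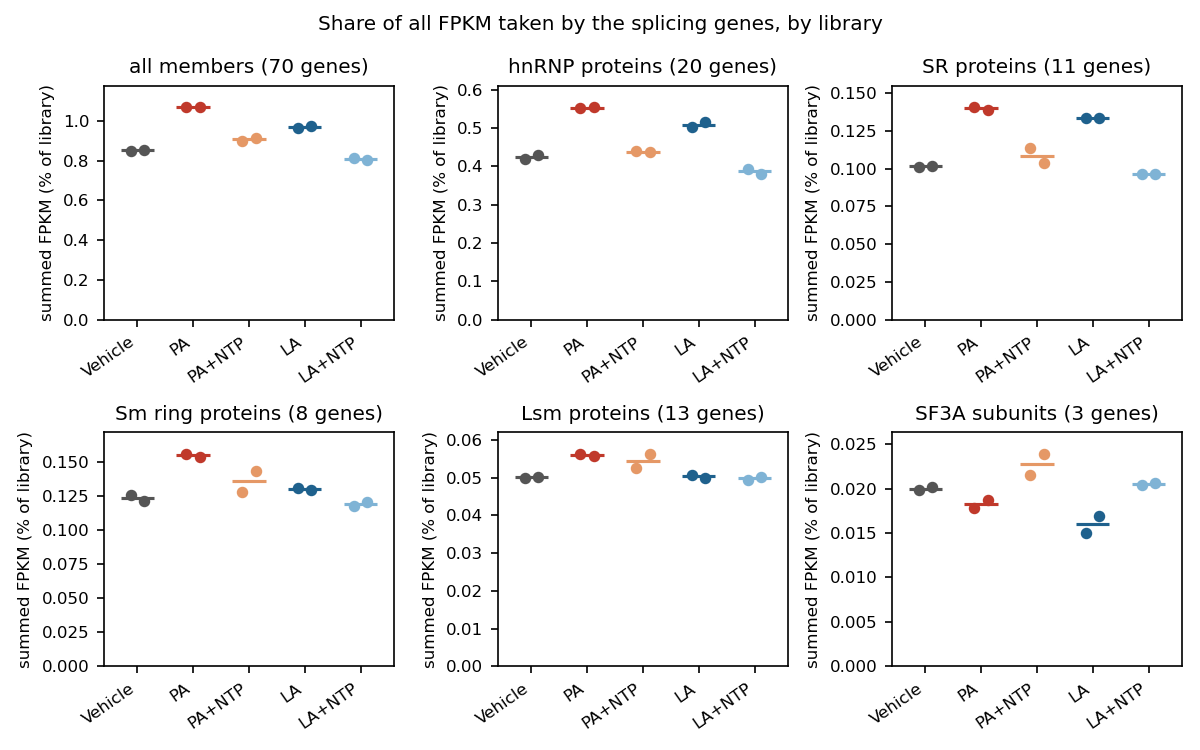
Summed FPKM of the splicing genes as a percent of all FPKM in the library (y axes, from 0), with 1 point per library, 2 libraries per group, and a bar at the group mean. The hnRNP and SR panels are highest under PA and LA, and the SF3A panel is lowest there.

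Palmitate was compared with Vehicle to ask which of these genes respond to a saturated fatty acid. Most of them were moderately higher under PA, and a few subunits of the U2 machinery were lower. At an adjusted p under 0.05 (edgeR quasi-likelihood test, Benjamini-Hochberg over all 14097 genes), 45 of the 69 tested members (65.2%) rose, against 23.5% of all genes tested, and 9 (13.0%) fell, against 22.0%. The median log2 fold change was 0.35 over the members and -0.01 over all genes tested. With a fold of at least 1.5 required as well, 7 members rose (Hnrnpa3, Srsf1, Lsm8, Hnrnpdl, Srsf7, Srsf5 and Hnrnph2), where 6.00% of all genes tested did so, and 2 fell (Sf3a2 and Sf3b4), where 8.92% did. The other 7 that fell at the adjusted p alone were Lsm10, Srsf4, Sf3b5, Lsm12, Snrpa, Hnrnpul1 and Lsm4. When the trend of all genes with transcript GC content, described further on, was removed, 34 members rose, against 18.5% of all genes, and 4 fell, against 12.8%. Then 8 reached the fold of 1.5 upward (Lsm7, Srsf9, Hnrnpa0, U2af1, Snrpb, Hnrnpa3, Hnrnpdl and Snrpd2), as did 3.76% of all genes, and none downward, where 4.75% did. Of the 9 named with the fold rule, the call was lost on leaving out Vehicle replicate 2 for Srsf7 (0.54) and Srsf5 (0.56), Vehicle replicate 1 or PA replicate 2 for Hnrnph2 (0.58 in both), and PA replicate 1 for Srsf7 (0.53). The count was 14 without PA replicate 2, of which 12 were higher. Library-size scaling called 4 higher (Hnrnpa3, Srsf1, Lsm8 and Hnrnpdl) and 2 lower (Sf3a2 and Sf3b4).

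Linoleate, the unsaturated fatty acid, was compared with Vehicle in the same way. Here 35 members rose (50.7%, against 20.8% of all genes tested) and 13 fell (18.8%, against 20.5%), with a median log2 fold change of 0.24 over the members and -0.01 over all genes. Srsf1, Hnrnpa3, Srsf5 and Hnrnpdl rose at least 1.5-fold, a change that 3.53% of all genes showed, and Sf3a2, Sf3b4 and Snrpa fell by that much, as did 7.11% of all genes. After GC correction, 19 members rose and 11 fell, where 9.85% and 7.48% of all genes did. The fold rule then held for Srsf9, which was higher (1.04% of all genes), and for Sf3b4, Sf3b5 and Lsm12, which were lower (2.18% of all genes), and under library-size scaling it called 2 higher (Srsf1 and Hnrnpa3) and 4 lower (Sf3a2, Sf3b4, Snrpa and Lsm10). Without Vehicle replicate 1 the values of Snrpa (-0.58) and Hnrnpdl (0.53) passed under the fold limit, as did Snrpa without LA replicate 2 (-0.54) and Hnrnpa3 without Vehicle replicate 2 (0.57).

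NTP before palmitate was compared with palmitate alone, and NTP before linoleate with linoleate alone, to ask what the drug changed. In both, the members' median moved the other way from the fatty acid's own contrast, and since each pair of contrasts shares its fatty acid libraries, the values are set side by side and no overlap is drawn from them. In PA+NTP against PA, 40 members fell (58.0%, against 23.0% of all genes) and 10 rose (14.5%, against 21.7%), with a median log2 fold change of -0.29, where that of all genes was 0.01. Hnrnpa3, Lsm5, Hnrnpa2b1, Srsf1, Hnrnpdl and Srsf5 fell at least 1.5-fold, which 5.11% of all genes did, and Sf3a2 and Sf3b4 rose by that much, as did 8.74%. After the same correction 24 members fell and 8 rose, where 16.2% and 10.8% of all genes did, and those past the fold of 1.5 were Hnrnpa3, Hnrnpa0 and Srsf9, which were lower (2.45% of all genes), and Sf3b4 and Sf3b5, which were higher (3.65%). The fold rule was not met by Lsm5 without PA+NTP replicate 1 (-0.58), by Hnrnpdl without PA replicate 1 or PA+NTP replicate 2 (-0.55 in both), or by Srsf5 without PA+NTP replicate 2 (-0.56).

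In LA+NTP against LA, 37 members fell (53.6%, against 25.6% of all genes) and 15 rose (21.7%, against 25.9%), with a median of -0.23 over the members and 0.01 over all genes. Past the fold of 1.5, 10 members fell where 7.57% of all genes did, led by Hnrnpa3, Hnrnpr, Lsm5, Srsf1, Hnrnpdl and Srsf5, and 7 rose where 11.7% did, led by Sf3a2, Sf3b4, Snrpa and Lsm10. After correction for GC, 24 members fell, against 16.1% of all genes, and 12 rose, against 11.4%. The members then past the fold of 1.5 were 5 higher (Sf3b4, Sf3b5, Lsm12, Snrpg and Sf3a2) and 3 lower (Srsf9, Hnrnpa3 and Hnrnpdl), where 3.36% and 2.44% of all genes passed in those directions.

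**Figure D2:**
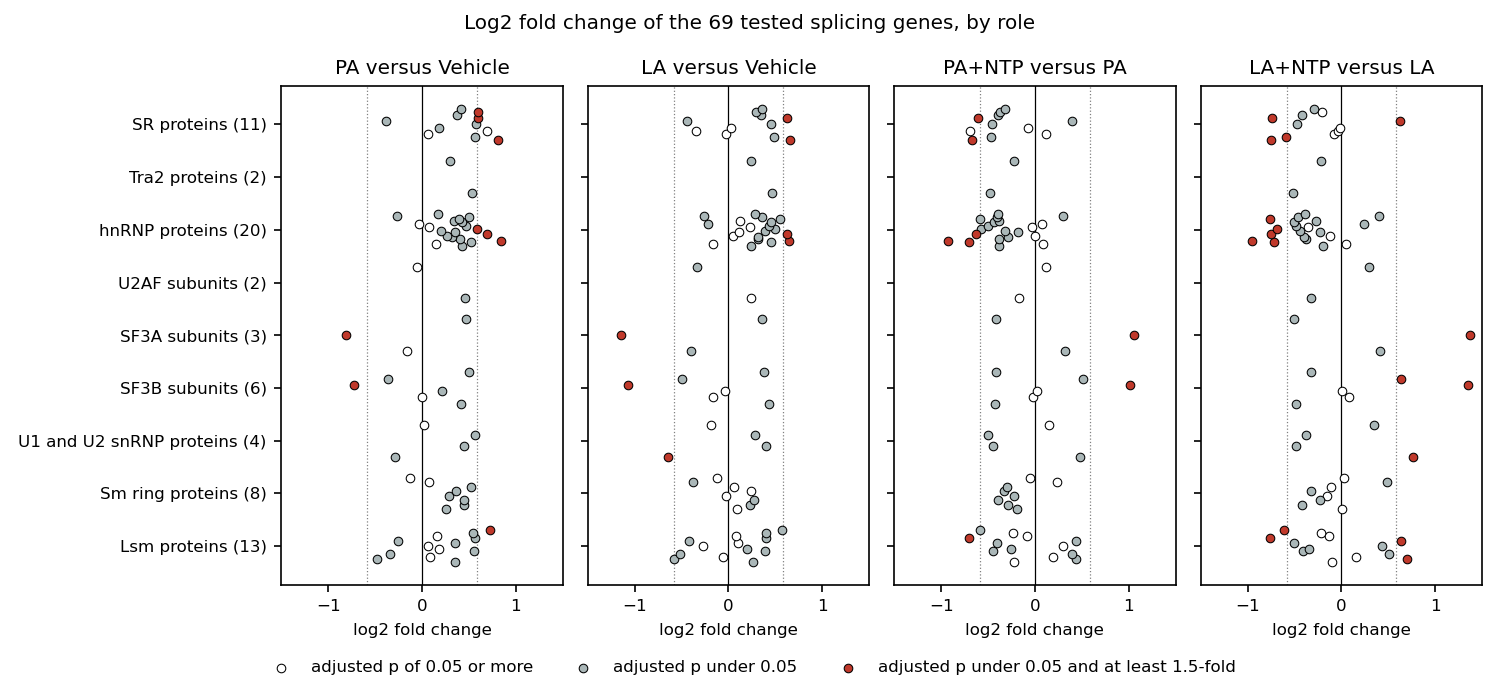
Log2 fold change (x axis) of each of the 69 tested genes in 4 contrasts, in rows by role with the number of genes in brackets. Red points passed an adjusted p under 0.05 with a fold of at least 1.5 (dotted lines), grey points passed the adjusted p alone and white points neither. Most points lie right of 0 for the fatty acids and left of 0 for NTP, with Sf3a2 and Sf3b4 at the far opposite end in every panel.

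Among the SR proteins, which bind exonic enhancers and recruit U1 and U2AF, 8 of 11 rose under PA and 7 under LA. With NTP, 7 fell against PA and 6 against LA. After GC correction these counts were 7, 3, 3 and 4, and the shares of all genes stand beside the counts of each contrast above. Srsf1, the founding member of the family, stood at 27.7 and 27.7 FPKM in Vehicle, 46.0 and 48.6 under PA, 31.3 and 30.6 under PA+NTP, 43.8 and 40.9 under LA, and 25.9 and 25.7 under LA+NTP. Both PA and both LA libraries lay well above the other 6, with no overlap. Its log2 fold change was 0.81 ± 0.06 (SE, adjusted p = 2.89e-07) under PA and 0.66 ± 0.06 (adjusted p = 2.52e-06) under LA. It fell by 0.67 with NTP on palmitate (adjusted p = 1.16e-06) and by 0.76 with NTP on linoleate (adjusted p = 2.41e-07). Removing the GC trend gave 0.51, 0.33, -0.36 and -0.35 in that order, each still with an adjusted p under 0.05.

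Srsf5, the most abundant SR gene here, was measured at 183 and 176 FPKM in Vehicle, 265 and 267 under PA, 190.2 and 172 under PA+NTP, 263 and 276 under LA, and 164 and 166 under LA+NTP. Every PA and LA library exceeded every library of the other 3 groups. The differences were 0.60 ± 0.06 for PA against Vehicle and 0.63 ± 0.06 for LA against Vehicle, both past the fold limit, and they shrank to 0.37 and 0.38 with the GC trend removed. Srsf7, which also exports mRNA from the nucleus, had 26.2 and 24.7 FPKM in Vehicle, 40.2 and 37.1 under PA, 31.6 and 29.8 under PA+NTP, 33.2 and 27.7 under LA, and 27.1 and 27.3 under LA+NTP. The PA libraries were the highest, and LA replicate 2 lay below both PA+NTP libraries. Srsf7 rose under PA (0.60 ± 0.09, adjusted p = 8.03e-05) and by 0.29 ± 0.09 under LA (adjusted p = 0.0146), and the corrected values were 0.40 and 0.07 (adjusted p = 0.635). Srsf3, the smallest SR protein, rose by 0.58 under PA and 0.46 under LA on the log2 scale, and Srsf10, a regulator that represses splicing when dephosphorylated, by 0.57 and 0.48. Srsf6 and Srsf9 also rose under both fatty acids, at 0.37 and 0.42 under PA.

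Srsf4 ran opposite to the rest of its family. Its level was 14.9 and 16.2 FPKM in Vehicle, 12.2 and 11.4 under PA, 17.1 and 15.1 under PA+NTP, 11.2 and 11.0 under LA, and 17.7 and 17.5 under LA+NTP. The PA and LA libraries were the lowest 4 of the 10. The log2 fold change was -0.38 ± 0.08 under PA (adjusted p = 0.00189) and -0.44 ± 0.08 under LA (adjusted p = 0.000633), and it rose by 0.40 and 0.62 with NTP. At 56.9% GC its transcript was the most GC-rich of the SR genes, and with the GC trend removed the 4 values were -0.06, -0.10, 0.06 and 0.19, none with an adjusted p under 0.05. Srsf2, better known as SC35, and Srsf11 differed little. Srsf2 gave 0.18 under PA, which passed (adjusted p = 0.0345), and 0.02 under LA, which did not. Srsf12, a scarce member, was between 0.10 and 0.26 FPKM in all libraries and passed no test.

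The Tra2 proteins, SR-like factors that bind GAA-rich exons, both rose under both fatty acids and both fell with NTP. Tra2a was at 40.5 and 39.1 FPKM in Vehicle, 56.7 and 55.5 under PA, 43.8 and 39.9 under PA+NTP, 55.7 and 50.3 under LA, and 37.8 and 38.5 under LA+NTP. The 4 fatty acid libraries without NTP were the highest, and the log2 fold changes were 0.53, 0.46, -0.48 and -0.52 in the order PA, LA, NTP on PA and NTP on LA. Tra2b, the more abundant of the pair, gave 0.30, 0.24, -0.22 and -0.22. The values of Tra2b were not kept when the GC trend was removed. After GC correction it stood at 0.00 under PA and -0.09 under LA, and at 0.19 with NTP on linoleate (adjusted p = 0.0477), which is the opposite direction.

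Most hnRNP genes rose under palmitate and fell with NTP. Of 20, 16 rose and 1 fell (Hnrnpul1) under PA, 13 rose and 2 fell (Hnrnpul1 and Hnrnpl) under LA, and 15 fell in each NTP contrast. Of all genes tested, 23.5% rose and 22.0% fell under PA, and 20.8% and 20.5% under LA. With NTP 23.0% fell on palmitate and 25.6% on linoleate. After GC correction 12 rose and 0 fell under PA, 7 rose and 1 fell under LA, 11 fell and 1 rose with NTP on palmitate, and 10 fell and 1 rose with NTP on linoleate. Of all genes, 18.5% then rose and 12.8% fell under PA, and 9.85% and 7.48% under LA. With NTP 16.2% then fell and 10.8% rose on palmitate, and 16.1% and 11.4% on linoleate. Hnrnpa3, a relative of hnRNP A1 that also binds telomeric and trafficking sequences, had the largest rise of any member under PA. It was measured at 89.9 and 79.4 FPKM in Vehicle, 151 and 152 under PA, 81.9 and 71.0 under PA+NTP, 121 and 119.9 under LA, and 64.7 and 60.2 under LA+NTP. The PA libraries were highest, the LA libraries next, and the LA+NTP libraries lowest, with no overlap between fatty acid libraries and the rest. Its log2 fold change was 0.84 ± 0.06 under PA (adjusted p = 4.28e-07) and 0.64 ± 0.06 under LA (adjusted p = 5.55e-06), and it fell by 0.93 (adjusted p = 2.80e-07) and 0.95 (adjusted p = 1.08e-07) with NTP. Hnrnpa3 kept a fold above 1.5 with the GC trend removed in 3 of these contrasts (0.62, -0.71 and -0.66) and gave 0.40 in the LA contrast.

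Hnrnpdl, a relative of hnRNP D that binds AU-rich RNA, was at 27.6 and 31.5 FPKM in Vehicle, 49.8 and 44.2 under PA, 33.9 and 29.0 under PA+NTP, 44.5 and 43.7 under LA, and 27.5 and 26.3 under LA+NTP. The values under PA and LA again exceeded all others. It rose by 0.70 ± 0.08 and 0.62 ± 0.08 under PA and LA and fell by 0.63 and 0.76 with NTP, and with the GC trend removed the 4 values were 0.59, 0.49, -0.52 and -0.59. Hnrnpa2b1, which packages nuclear RNA and sorts some microRNAs into vesicles, was at 295 and 283 FPKM in Vehicle, 408 and 377 under PA, 266 and 259 under PA+NTP, 365 and 368 under LA, and 255 and 231 under LA+NTP. It rose by 0.52 ± 0.07 under PA and 0.45 ± 0.07 under LA and fell by 0.70 (adjusted p = 3.11e-06) and 0.72 (adjusted p = 1.39e-06) with NTP, to levels below Vehicle in all 4 NTP libraries. Its corrected NTP values, -0.47 and -0.41, were under the fold limit. Hnrnph2, a binder of G-runs, changed by 0.59 under PA, 0.50 under LA, -0.58 with NTP on palmitate and -0.69 with NTP on linoleate. With correction for GC these were 0.30, 0.17 (adjusted p = 0.0748), -0.28 and -0.29, so neither fold call was kept. Hnrnpr, a relative of Syncrip, was scarce, with 7.71 and 8.18 FPKM in Vehicle, 10.7 and 9.85 under PA, 7.27 and 6.97 under PA+NTP, 10.8 and 11.9 under LA, and 6.83 and 6.93 under LA+NTP. The PA and LA libraries were the highest 4 and the NTP libraries the lowest 4. Hnrnpr fell by 0.76 with NTP on linoleate (adjusted p = 9.91e-07), and the corrected value was -0.43.

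Hnrnpk, which binds C-rich RNA and DNA, was the most abundant of all members. It was found at 319 and 309 FPKM in Vehicle, 413 and 434 under PA, 304 and 318 under PA+NTP, 417 and 401 under LA, and 304 and 297 under LA+NTP. Its PA and LA libraries exceeded the others by about the same margin (0.47 ± 0.06 and 0.43 ± 0.06), and it fell by 0.50 and 0.48 with NTP. After it in mean level came Hnrnpf, Hnrnpa2b1, Hnrnpu and Srsf5, and the first of these, a G-run binder, was at 290.0 ± 4.6 FPKM in Vehicle against 289 ± 8.2 for Hnrnpa2b1 (SD, n = 2), so the pair did not differ beyond their spread there. Hnrnpu, a nuclear scaffold protein, rose by 0.50 under PA and 0.36 under LA, and these values were 0.17 and -0.00 with the GC trend removed. Hnrnpl and Hnrnpul1 went the other way. Hnrnpl, which binds CA repeats, gave -0.03 under PA, which did not pass, and -0.22 under LA (adjusted p = 0.00414). Hnrnpul1, a relative of hnRNP U, fell by 0.27 under PA (adjusted p = 0.0162) and 0.26 under LA (adjusted p = 0.0204). None of these 3 falls passed after GC correction, with -0.04 for Hnrnpl under LA and -0.05 and -0.04 for Hnrnpul1, and Hnrnpl was then higher under PA (0.16, adjusted p = 0.0421).

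**Figure D3:**
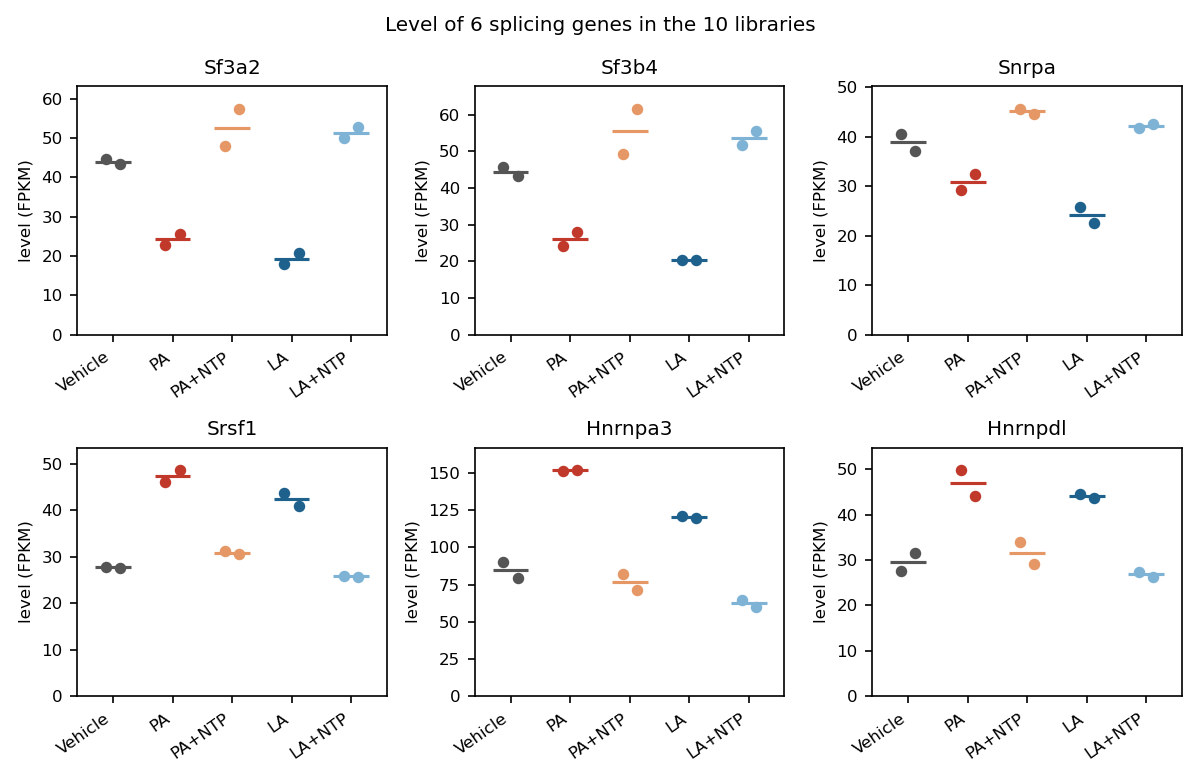
Level in FPKM (y axes, from 0) of Sf3a2, Sf3b4, Snrpa, Srsf1, Hnrnpa3 and Hnrnpdl, with 1 point per library, 2 libraries per group, and a bar at the group mean. The upper 3 genes are lowest under PA and LA and the lower 3 are highest there, and each NTP group lies nearer to Vehicle than its fatty acid group does.

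U2AF marks the end of the intron, and whether its 2 subunits moved alike depended on the GC correction. U2af2, the large subunit that reads the polypyrimidine tract, was at 69.7 and 63.6 FPKM in Vehicle, 61.9 and 63.4 under PA, 71.5 and 70.2 under PA+NTP, 50.03 and 52.3 under LA, and 65.8 and 62.8 under LA+NTP. The LA libraries were the lowest of the 10. It gave -0.05 under PA (adjusted p = 0.506), fell by 0.33 under LA (adjusted p = 0.000635) and rose by 0.29 with NTP on linoleate (adjusted p = 0.00114). U2af1, the small subunit that reads the terminal AG, rose by 0.46 under PA (adjusted p = 0.00132) and fell by 0.33 with NTP on linoleate (adjusted p = 0.00778). After GC correction both rose under PA, U2af2 by 0.22 (adjusted p = 0.0162) and U2af1 by 0.64 (adjusted p = 0.000188). The corrected values of U2af2 were -0.04 under LA and -0.08 with NTP on linoleate, neither of which passed and the second of which changed sign, while U2af1 gave 0.43 (adjusted p = 0.00668) and -0.55 (adjusted p = 0.000604). For U2af1 58.7% of the transcript's 31-base words also occur in another gene, so its reads are uncertain.

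Within SF3A, the trimer that bridges the U2 snRNP, the subunits moved in opposite directions. Sf3a2, the subunit with a zinc finger and a proline-rich tail, had 44.6 and 43.4 FPKM in Vehicle, 22.9 and 25.6 under PA, 47.9 and 57.5 under PA+NTP, 18.0 and 20.7 under LA, and 49.9 and 52.7 under LA+NTP. The LA libraries were the lowest and the PA libraries the next, without overlap with the remaining 6. It fell by 0.81 ± 0.10 on the log2 scale under PA (adjusted p = 1.84e-05) and by 1.14 ± 0.10 under LA (adjusted p = 2.45e-06), and rose by 1.05 ± 0.10 (adjusted p = 2.18e-06) and 1.37 ± 0.10 (adjusted p = 1.65e-07) with NTP on palmitate and on linoleate. After GC correction the values were -0.26 under PA (adjusted p = 0.0851), which no longer passed, -0.54 under LA (adjusted p = 0.00369), 0.50 with NTP on palmitate and 0.62 with NTP on linoleate.

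Sf3a3, a zinc finger subunit that contacts the U2 snRNP, was at 34.6 and 35.8 FPKM in Vehicle, 47.6 and 47.8 under PA, 35.6 and 39.0 under PA+NTP, 41.2 and 46.1 under LA, and 31.7 and 31.3 under LA+NTP. The PA and LA libraries were the highest. It rose by 0.47 ± 0.07 under PA and 0.35 ± 0.07 under LA and fell by 0.41 and 0.51 with NTP, and the values were nearly the same with the GC trend removed (0.49, 0.38, -0.43 and -0.53). FPKM is scaled by transcript length, so the subunits can be set against each other, but it is not corrected for GC content. The transcripts of Sf3a2 and Sf3a3 were 62.2% and 49.8% GC. No ratio was taken with the GC trend removed, so the part of that trend in the ratio was not tested. The ratio of Sf3a2 to Sf3a3 was 1.29 and 1.21 in Vehicle, 0.481 and 0.536 under PA and 0.438 and 0.448 under LA. With NTP it was 1.34 and 1.48 on palmitate and 1.58 and 1.68 on linoleate. Sf3a1, which binds the other two, gave -0.16 under PA (adjusted p = 0.0565), fell by 0.40 under LA (adjusted p = 0.000259) and rose by 0.32 and 0.41 with NTP, values that the GC correction left at -0.13, -0.37, 0.29 and 0.38.

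SF3B, the complex that clamps the branch point, was divided in the same manner. Sf3b4, which contacts the pre-mRNA beside the branch point, was at 45.7 and 43.4 FPKM in Vehicle, 24.2 and 28.1 under PA, 49.4 and 61.7 under PA+NTP, 20.5 and 20.4 under LA, and 51.7 and 55.7 under LA+NTP. Its PA and LA libraries lay below the other 6 without overlap. It fell by 0.72 ± 0.10 under PA (adjusted p = 7.69e-05) and by 1.07 ± 0.10 under LA (adjusted p = 5.32e-06), and rose by 1.02 ± 0.10 (adjusted p = 4.14e-06) and 1.35 ± 0.10 (adjusted p = 2.67e-07) with NTP. The fold of 1.5 was kept with the GC trend removed in 3 of the 4 contrasts (-0.77, 0.72 and 0.97), and the value under PA was -0.44 (adjusted p = 0.0075). For Sf3b4, 55.0% of the transcript's 31-base words also occur in another gene, most often Gm7935, so its counts are uncertain.

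Sf3b5, a small structural subunit, stood at 32.3 and 30.02 FPKM in Vehicle, 24.3 and 23.2 under PA, 33.1 and 36.9 under PA+NTP, 24.4 and 18.1 under LA, and 33.2 and 35.2 under LA+NTP. It was lowest in the PA and LA libraries. It fell by 0.36 ± 0.13 under PA (adjusted p = 0.0287) and by 0.49 ± 0.12 under LA (adjusted p = 0.00532), and rose by 0.51 and 0.64 with NTP. At 45.5% GC its transcript is not GC-rich, and with the GC trend removed its values grew to -0.52, -0.68, 0.66 and 0.86. Sf3b1, the scaffold that surrounds the branch point, rose by 0.41 and 0.43 and fell by 0.42 and 0.49 with NTP, but with the GC trend removed it gave between -0.13 and 0.13 and passed in none of the 4. Sf3b6, which lies near the branch adenosine, rose by 0.51 under PA and 0.38 under LA. Sf3b2, the most abundant SF3B gene, was at 88.8 and 88.6 FPKM in Vehicle, 89.0 and 84.8 under PA, 89.3 and 88.4 under PA+NTP, 71.5 and 81.4 under LA, and 86.6 and 79.5 under LA+NTP. Its 10 libraries lay between 71.5 and 89.3 FPKM, and it passed in none of the 4 contrasts. Sf3b3 passed in PA against Vehicle (0.22, adjusted p = 0.0127). The ratio of Sf3b4 to Sf3b1 was 1.07 and 0.986 in Vehicle, 0.433 and 0.491 under PA, 0.361 in each LA library, 1.11 and 1.42 under PA+NTP, and 1.23 and 1.36 under LA+NTP. It is not corrected for GC either, and the transcripts of Sf3b4 and Sf3b1 were 56.2% and 42.1% GC.

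Of the U1 and U2 snRNP proteins, Snrpa, which binds a U1 stem loop, was at 40.5 and 37.2 FPKM in Vehicle, 29.3 and 32.6 under PA, 45.7 and 44.7 under PA+NTP, 25.8 and 22.5 under LA, and 41.7 and 42.5 under LA+NTP. The LA libraries were lowest and the PA libraries next. It fell by 0.29 under PA (adjusted p = 0.0105) and 0.64 ± 0.08 under LA (adjusted p = 3.98e-05), and rose by 0.48 and 0.76 with NTP. Once corrected for GC the 4 values were 0.01, -0.31, 0.16 and 0.35. Snrpa1 and Snrpb2, the pair that binds a U2 stem loop, both rose, by 0.45 and 0.56 under PA and by 0.40 and 0.28 under LA. The rise of Snrpa1 was 0.50 and 0.45 with the GC trend removed, whereas that of Snrpb2 was 0.18 and -0.14. Snrpc, the most abundant of the 4, which helps U1 hold the intron start, had 79.0 and 83.1 FPKM in Vehicle, 75.8 and 83.9 under PA, 86.9 and 98.1 under PA+NTP, 73.3 and 64.2 under LA, and 87.3 and 93.0 under LA+NTP. It passed only with NTP on linoleate among the 4 contrasts (0.35, adjusted p = 0.00351).

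The 8 Sm ring genes encode the proteins that encircle most spliceosomal RNAs. Under PA 6 rose and none fell, while Snrpg (0.07) and Snrpn (-0.12) did not pass. Under LA, Snrpd2 and Snrpd1 rose and Snrpg fell. After GC correction 3 were higher and 1 lower under PA, and 2 higher and 3 lower under LA. Of all genes tested, 23.5% were higher and 22.0% lower under PA, and 20.8% and 20.5% under LA. With the correction these shares were 18.5% and 12.8% under PA and 9.85% and 7.48% under LA. The Sm counts were not tested against them. Snrpd2, the most abundant, was at 126 and 125 FPKM in Vehicle, 165 and 169 under PA, 120.3 and 145 under PA+NTP, 146 and 147 under LA, and 124 and 133 under LA+NTP. The PA libraries were the highest and the LA libraries the next. It rose by 0.45 and 0.27, and by 0.59 and 0.41 with the GC trend removed. Snrpn, the brain-enriched and imprinted relative of Snrpb, was between 8.01 and 9.43 FPKM in all libraries and passed in none of the 4 contrasts.

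The 13 Lsm genes went both ways. Those of the ring on U6 and its cytoplasmic counterpart in mRNA decay include Lsm8, which is specific to the nuclear ring and was at 12.5 and 12.3 FPKM in Vehicle, 20.1 and 20.04 under PA, 14.0 and 13.9 under PA+NTP, 19.5 and 16.0 under LA, and 12.0 and 12.1 under LA+NTP. The PA libraries were highest, with the LA libraries above the remaining 6. Lsm8 rose by 0.73 ± 0.12 under PA (adjusted p = 0.000228) and 0.57 ± 0.12 under LA (adjusted p = 0.00157), and fell by 0.58 and 0.61 with NTP. Its corrected value under PA was 0.48, below the fold limit. Lsm5, shared by both rings, fell by 0.70 (adjusted p = 0.0013) and 0.76 (adjusted p = 0.00046) with NTP. Lsm5 had the lowest transcript GC of all members (36.6%), 46.3% of its 31-base words occur in other genes, and with the GC trend removed its NTP values were -0.18 (adjusted p = 0.389) and -0.14 (adjusted p = 0.511).

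Lsm10, which sits in the U7 snRNP that trims histone mRNA, was at 21.3 and 20.2 FPKM in Vehicle, 15.9 and 13.5 under PA, 19.8 and 21.0 under PA+NTP, 14.6 and 12.6 under LA, and 23.9 and 21.3 under LA+NTP. It was lowest in the 4 fatty acid libraries without NTP. It fell by 0.48 under PA (adjusted p = 0.00368) and 0.58 under LA (adjusted p = 0.00104) and rose by 0.70 ± 0.11 with NTP on linoleate (adjusted p = 0.000106), or 0.45 as corrected. Lsm4 and Lsm12 fell with it, by 0.26 and 0.34 under PA and by 0.42 and 0.51 under LA. The fall of Lsm12 was larger with the GC trend removed (-0.47 and -0.68), while Lsm4, with 59.4% GC, then gave 0.19 and 0.07 and did not pass. Lsm14a, a P-body protein and the most abundant of the 13, was at 34.8 and 34.7 FPKM in Vehicle, 48.6 and 50.9 under PA, 35.5 and 40.3 under PA+NTP, 42.8 and 45.7 under LA, and 34.9 and 33.7 under LA+NTP. It rose by 0.55 and 0.39 under PA and LA and fell by 0.45 and 0.41 with NTP, and it passed in all 4 contrasts with the GC trend removed too.

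Base composition moved with these changes. The Spearman correlation between transcript GC content and a library's deviation from the mean of all libraries, over all genes tested with a GC value, was 0.343 to 0.570 in the Vehicle, PA+NTP and LA+NTP libraries and -0.469 to -0.569 in the PA and LA libraries. This split follows the treatment exactly, so a library effect on GC and a response of GC-poor genes cannot be told apart. The members are GC-poor, with a median of 46.0% (36.6% to 62.2%) against 50.1% over all genes tested. Across the 69 members, which share libraries and are not replicates, Pearson's r of GC with the log2 fold change was -0.62 under PA, -0.61 under LA, 0.63 with NTP on palmitate and 0.67 with NTP on linoleate. Among the 45 members under 50% GC, 36 rose and 2 fell under PA, whereas among the 24 at or above it 9 rose and 7 fell. No share of all genes was taken in the same GC classes, so these counts cannot be told apart from the trend over all genes. A loess fit on GC removed the relation of GC with the members' fold change (r of 0.03 to 0.05). The members' median log2 fold change was then 0.21, 0.04, -0.13 and -0.06 in the same 4 contrasts. The medians of all genes tested were then 0.04, 0.03, -0.03 and -0.03, so the members lay close to all genes in the contrasts with linoleate.

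**Figure D4:**
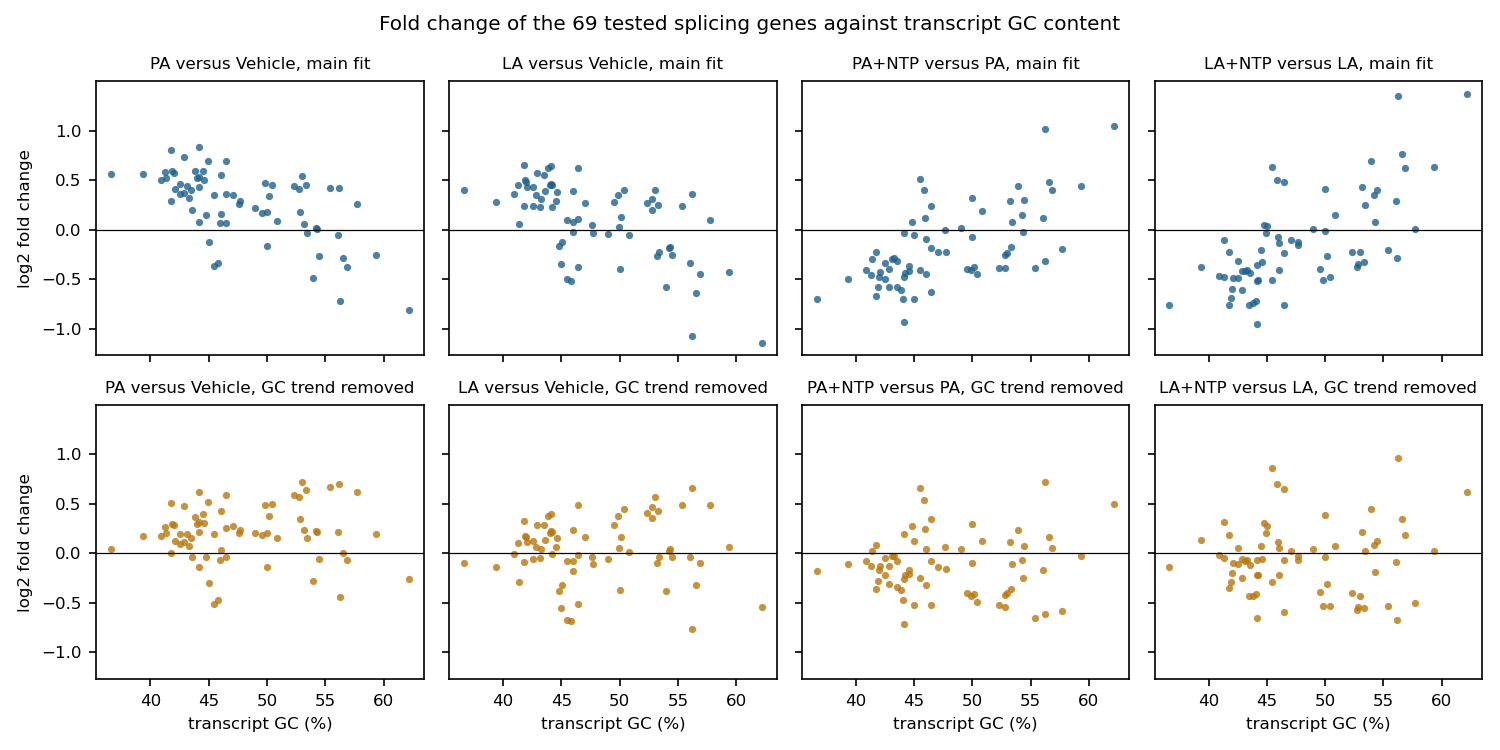
Log2 fold change (y axes) of the 69 tested genes against the GC content of their transcripts in percent (x axes), in 4 contrasts, as fitted (upper row) and with the GC trend over all genes removed (lower row). The slope is downward for the fatty acids and upward for NTP in the upper row, and the lower row is flat with most points of PA against Vehicle above 0.

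The 6 members called with the fold rule in all 4 contrasts were Sf3a2, Sf3b4, Srsf1, Srsf5, Hnrnpa3 and Hnrnpdl, and their coding sequences differ in composition. The next lines give 100 bases of 1 coding exon for 2 genes that fell and 2 that rose under the fatty acids. The 2 that rose are those with the lowest coding GC content, so they do not stand for all that rose. The stretches are those whose GC content is nearest to that of their coding sequence, with G and C in capitals. They come from GENCODE M21 on GRCm38 and read 5′ to 3′ on the gene's strand: exon 2 of Sf3a2 (chr10:80801235-80801334, plus strand), exon 2 of Sf3b4 (chr3:96172992-96173091, plus), exon 3 of Srsf5 (chr12:80946595-80946694, plus) and exon 3 of Hnrnpa3 (chr2:75661671-75661770, plus).
Sf3a2: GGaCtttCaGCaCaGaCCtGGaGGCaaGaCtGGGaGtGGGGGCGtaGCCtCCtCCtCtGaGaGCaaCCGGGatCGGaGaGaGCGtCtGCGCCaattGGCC
Sf3b4: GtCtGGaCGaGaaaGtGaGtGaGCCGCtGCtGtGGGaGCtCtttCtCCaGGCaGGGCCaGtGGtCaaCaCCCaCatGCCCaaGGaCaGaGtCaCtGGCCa
Srsf5: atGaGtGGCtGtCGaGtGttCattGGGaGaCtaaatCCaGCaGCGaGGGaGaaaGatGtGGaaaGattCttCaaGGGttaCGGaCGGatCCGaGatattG
Hnrnpa3: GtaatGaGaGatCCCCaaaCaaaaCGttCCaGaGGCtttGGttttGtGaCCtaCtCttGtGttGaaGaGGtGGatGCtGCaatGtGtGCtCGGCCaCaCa
The coding sequence was 62.6% GC in Sf3a2 and 60.3% in Sf3b4, against 48.0% in Srsf5 and 47.8% in Hnrnpa3. In Hnrnpdl, which also rose and is not printed, it was 53.1%. Srsf1 does not follow its coding sequence: this was 58.2% GC, while its whole transcripts, untranslated parts included, were 41.8%.

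The promoters of the members were set beside those of all genes. RefSeq windows on GRCm38.p6 held 61 of the members, and Sf3b4 was not among them. In the 250 bases before the start site, the median GC content was 60.8% for members and 52.0% for all 27025 genes with a window, and the median number of CpG pairs was 19 and 6. The SP and KLF motif GGGCGG was present on either strand in 67.2% of members and 32.9% of all genes, the ETS motif CCGGAAG in 26.2% and 7.1%, the CCAAT box, CCAAT, in 45.9% and 34.5%, and TATAAA in 8.2% and 13.0%. The motif TGACGTCA was found in 4.9% of members and 1.6% of all genes, and CACGTG in 4.9% and 6.0%. The 27025 genes were not limited to those tested in these libraries, and no share was taken over the tested genes alone. Whether the promoters of the members differ from those of the other tested genes was therefore not tested. Motifs were searched separately, so the SP and ETS letters may overlap by a few bases.

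The windows of Srsf5 and Hnrnpa3, called in all 4 contrasts, show these elements outside annotated exons, with the SP, ETS and CCAAT motifs and their reverse complements in capitals. That of Srsf5 ends at the base before the start site (chr12:80945397-80945498, plus strand, GRCm38.p6), and that of Hnrnpa3 ends 15 bases before it (chr2:75659009-75659243, plus strand).
Srsf5: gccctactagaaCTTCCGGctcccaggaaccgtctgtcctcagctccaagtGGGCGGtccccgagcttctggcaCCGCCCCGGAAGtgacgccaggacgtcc
Hnrnpa3: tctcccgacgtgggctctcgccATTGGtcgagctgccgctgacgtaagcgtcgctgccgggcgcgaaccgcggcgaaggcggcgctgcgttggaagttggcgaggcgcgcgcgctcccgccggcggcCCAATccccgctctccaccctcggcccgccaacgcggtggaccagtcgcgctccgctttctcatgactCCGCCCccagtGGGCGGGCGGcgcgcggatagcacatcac
The full window of Srsf5, of which 148 bases are annotated exon, held 2 ETS and 3 SP motifs, and that of Hnrnpa3 3 SP motifs and 2 CCAAT boxes. Sf3a2, which moved the other way, had 1 ETS and 1 SP motif in a window of 65.2% GC. All 250 bases of that window are annotated exon, so it is not a like comparison with the stretches printed above. A match is a description of the letters and not of binding.

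When NTP-treated cells were set against Vehicle, few members differed. In PA+NTP against Vehicle, none met the fold rule, which 2.85% of all genes met, and 4 passed the adjusted p alone, against 10.1% of all genes. These were Sf3b3 (0.24), Hnrnpa1 (0.23) and Hnrnpd (0.26), which were higher, and Hnrnpul2 (-0.22), which was lower. In LA+NTP against Vehicle no member passed either rule in edgeR, where 0.284% of all genes passed the adjusted p and 0.0922% the fold rule as well. An unadjusted p under 0.05 was reached by 19 of the 69 members in the first of these contrasts and 13 in the second. Of the 14097 genes tested, 3476 reached it in the first and 2014 in the second. The member counts were not tested against those of all genes. DESeq2 called no member with the fold rule in either contrast. A missed threshold does not show that the levels were equal.

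Palmitate and linoleate were given at different concentrations, 200 μM and 12 μM, so the fatty acid and its dose cannot be told apart. In PA against LA, 14 members passed the adjusted p, against 11.1% of all genes, and all 14 were higher under PA. None met the fold rule, which 3.23% of all genes met, in edgeR or DESeq2. Of the 69 members, 31 had an unadjusted p under 0.05, as did 3492 of the 14097 genes tested. The largest of these 14 differences was in Snrpf, an Sm protein, at 61.7 and 55.0 FPKM in Vehicle, 83.6 and 79.9 under PA, 64.3 and 73.9 under PA+NTP, 60.3 and 57.1 under LA, and 57.0 and 55.1 under LA+NTP. The PA libraries were the highest 2, and the LA libraries lay within the range of Vehicle. The difference from LA was 0.46 ± 0.09 (adjusted p = 0.00342). Snrpg followed with 0.45 ± 0.11 (adjusted p = 0.0189), Sf3b4 and Snrpa with 0.35 each, Hnrnpa1 with 0.32 and Snrpd3 with 0.32. The effect of NTP under palmitate was also compared with that under linoleate as an interaction. No member passed, as was so for 0% of all genes by the fold rule in edgeR, and none was called by DESeq2. For this interaction 5 of the 69 members had an unadjusted p under 0.05, as did 1029 of the 14097 genes tested.

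The files also give, for each gene, a transcript length weighted by the estimated abundance of its isoforms, which moves when the isoform mix does. Of the members, 24 had several transcripts in the files and 23 of these had a length that varied. In 13 of the 23 the range was under 1% of the mean. In 6 members (Srsf3, Hnrnpa2b1, Hnrnpab, Hnrnpf, Srsf5 and Hnrnpr) the length moved one way under both fatty acids and back with NTP in both, without overlap between the groups compared, and 18.7% of the 2511 genes with several transcripts, a varying length and a mean of at least 1 FPKM did the same, so the members' share of 6 in 23 is read as a description only. Among these 6 the range was 8.20% of the mean in Hnrnpa2b1, 6.53% in Srsf3, 1.55% in Hnrnpab and 1.04% in Hnrnpf. In Srsf5 (0.76%) and Hnrnpr (0.28%) it was under 1%. Srsf3 had weighted lengths of 2789 and 2773 bases in Vehicle, 2647 and 2664 under PA, 2786 and 2766 under PA+NTP, 2690 and 2671 under LA, and 2800 and 2826 under LA+NTP. The 4 fatty acid libraries were the shortest. Hnrnpa2b1 lengthened instead, from 2216 and 2224 bases in Vehicle to 2287 and 2284 under PA and 2316 and 2307 under LA, and it was 2264 and 2132 under PA+NTP and 2192 and 2178 under LA+NTP. The weights are model estimates with no error in the files, and which exons differ was not tested.

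**Figure D5:**
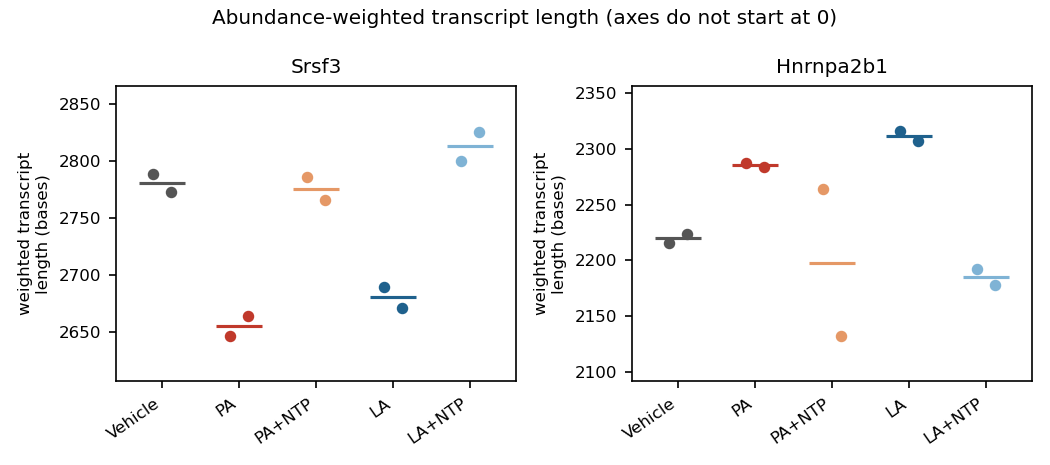
Abundance-weighted transcript length in bases (y axes, which do not start at 0) of Srsf3 and Hnrnpa2b1, with 1 point per library, 2 libraries per group, and a bar at the group mean. Srsf3 is shorter and Hnrnpa2b1 longer in the 4 fatty acid libraries without NTP than in Vehicle.

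Other genes of the splicing machinery, taken from lists of known components, had medians of the same sign. Of 156 tested, 76 rose and 19 fell under PA, 63 rose and 29 fell under LA, 61 fell and 30 rose with NTP on palmitate, and 73 fell and 29 rose with NTP on linoleate. The shares of all genes in each direction are those given for each contrast above. The medians were 0.17, 0.12, -0.12 and -0.18 on the log2 scale, nearer to 0 than those of the members in each contrast before GC correction. With the GC trend removed they were 0.16, 0.06, -0.08 and -0.11, against 0.21, 0.04, -0.13 and -0.06 for the members. Those of all genes tested were then 0.04, 0.03, -0.03 and -0.03. The medians of these other splicing genes were then nearer to 0 than the members' only in the contrasts with palmitate. After GC correction 59 rose and 8 fell under PA, 26 rose and 9 fell under LA, 37 fell and 16 rose with NTP on palmitate, and 42 fell and 14 rose with NTP on linoleate, where the shares of all genes are those given for each contrast above. Of 59 further snRNP and catalytic spliceosome genes, 29 rose and 3 fell under PA. Of 59 other splicing regulators, 30 rose and 9 fell, and of 19 genes of snRNP assembly, 10 rose and 1 fell. Of 9 SR protein kinases and their partners, 5 rose and 1 fell. Of 10 genes of nonsense-mediated decay, 2 were higher and 5 lower under PA and 2 higher and 6 lower under LA, and after GC correction 0 were higher and 3 lower in each, with medians of -0.04. Of all genes tested, 23.5% were higher and 22.0% lower under PA, and 20.8% and 20.5% under LA. With the correction these shares were 18.5% and 12.8% under PA and 9.85% and 7.48% under LA. The counts of these lists were not tested against them.

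Among these other genes, the largest changes past the fold rule under PA were in Magohb (0.87 ± 0.20), an exon junction protein, Gemin6 (0.84 ± 0.13), of the SMN complex that loads Sm rings, and Prpf38a (0.73 ± 0.09), which activates the spliceosome. The GC correction left 0.51 for Magohb (adjusted p = 0.0691), which no longer passed, 0.70 for Gemin6 and 0.54 for Prpf38a. Gemin6 was at 8.01 and 9.11 FPKM in Vehicle, 15.4 and 14.7 under PA, 9.10 and 9.06 under PA+NTP, 10.6 and 10.7 under LA, and 8.92 and 7.16 under LA+NTP. The 2 PA libraries stood apart from the other 8. Scaf1, an SR-related protein that contacts RNA polymerase II, had the largest fall under LA (0.87) and rise with NTP (0.87 on palmitate and 1.11 on linoleate), and with the GC trend removed these were -0.24, 0.30 and 0.33. Ptbp2, a repressor of neuronal exons, rose by 0.66 under LA and by 0.28 after correction. Esrp2, which maintains adult splicing in hepatocytes, was at 20.5 and 20.8 FPKM in Vehicle, 13.2 and 14.9 under PA, 20.1 and 19.6 under PA+NTP, 12.4 and 13.2 under LA, and 22.3 and 23.7 under LA+NTP. The fatty acid libraries without NTP were the lowest 4, and it fell by 0.65 under LA (adjusted p = 1.62e-05), or -0.36 as corrected. Zcrb1, of the minor spliceosome, fell by 0.77 with NTP on palmitate, and Prpf39, of the U1 snRNP, and Matr3, a nuclear matrix protein, fell by 0.87 and 0.85 with NTP on linoleate. Corrected for GC, Zcrb1 gave -0.70, Prpf39 -0.27 and Matr3 -0.32.

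Over the whole series, the 6 hepatocyte markers were present in all libraries (Alb at 1929 to 2818 FPKM), and their summed level was 3093 to 3280 FPKM in Vehicle, 2181 to 2413 under PA, 2650 to 2965 under PA+NTP, 3128 to 3164 under LA and 3687 to 3913 under LA+NTP. The 5 Kupffer cell markers summed to 1.98 to 2.19 FPKM under PA and 3.23 to 4.58 in the other groups. Most of this difference was Cd5l, at 2.84 and 2.70 FPKM in Vehicle and 1.16 and 1.31 under PA. Clec4f (0.22 and 0.15 in Vehicle, 0.03 and 0.05 under PA) and Vsig4 (0.30 and 0.08, then 0 and 0.04) were lower too. Adgre1 did not fall with them (0.34 and 0.56 in Vehicle, 1.00 and 0.52 under PA), nor did Timd4 (0 and 0.02, then 0 and 0.06). Clec4f, Vsig4 and Timd4 did not exceed 0.30 FPKM in any library. Whether Kupffer cells were fewer under PA was not tested. The 5 stellate cell markers summed to 15.2 to 18.5, the 5 endothelial markers to 15.6 to 21.9 and the 5 lymphocyte markers to 0.40 to 0.79 FPKM. The 5 cholangiocyte markers summed to 407 to 704 FPKM, nearly all of it Spp1, with Krt7 at 0 to 0.13. The part of these shifts in the splicing genes was not tested. In 14 members over 30% of the 31-base words of the transcript occur in another gene, namely Lsm7, U2af1, Sf3b4, Hnrnpa1, Lsm5, Hnrnpk, Hnrnpf, U2af2, Snrpe, Snrpc, Hnrnph2, Srsf5, Srsf3 and Snrpa, and these values are uncertain to that extent, while 26 members share under 1%.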

How the data were processed

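RNA of 10 libraries (5 groups of 2) had been extracted with TRIzol, sequenced, aligned with HISAT and Bowtie2 and quantified with RSEM by the authors, and the labels give mm10. Tool versions and the annotation: not given in the sources used here. The authors deposited RSEM expected counts (estimated counts that need not be whole), FPKM and a weighted transcript length per gene, and listed only genes at 0.01 FPKM or more, so a missing gene was set to 0. Whole numbers were made of the expected counts, which went into edgeR 4.0.16 (R 4.3.3, quasi-likelihood test) after TMM scaling and its default filter, with 1 factor of 5 groups over all 10 libraries, and p-values were adjusted by the Benjamini-Hochberg method. The filter dropped 3958 genes. A call needed an adjusted p under 0.05 and a fold of at least 1.5. SE is the log2 fold change divided by the square root of F. FPKM values are printed as deposited by the authors and entered only limma 3.58.1 and a rule coded after NOISeq, both as alternatives. Gene IDs were matched to symbols for 17998 genes by ID and 11 by accession, and 46 matched none. Transcript GC content came from GENCODE M21 for 99.2% of genes. Scripts were tested on simulated data. Alternatives were DESeq2 1.42.0, limma, other scaling and filters, GC removal, replicate number as a block and leaving out each library. A further rule took the study's NOISeq criteria (fold of at least 1.5 and probability of at least 0.95). It was coded anew on FPKM, with noise taken between the 2 libraries within each group compared, and it scored only the members. The files and labels name no batch. A chi-square per gene of 3.35 to 13.6 between the libraries of each group lay above counting noise, so no library was a copy of another. Genes named in the text were the called members with the largest change in each of the 4 contrasts (at most 12 each), the most abundant of each role, the 3 other splicing genes with the largest called change in each, and members that failed the filter. Further members were named to describe their role group. The members and all gene lists were chosen with earlier results of these data known.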

Additional observations from a re-analysis of the deposited data

Results flagged for a closer look

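For 2 members, the PA and LA libraries lay on opposite sides of Vehicle without overlap in TMM-scaled CPM, though for Snrpg the FPKM of PA and Vehicle overlapped. Hnrnpa1, the best-known splicing repressor of the hnRNP family, had log2 fold changes of 0.15 under PA and -0.17 under LA, neither of which passed the adjusted p. Its levels were 131 and 134 FPKM in Vehicle, 146 and 140.4 under PA, 154 and 165 under PA+NTP, 116 and 112 under LA, and 114 and 131 under LA+NTP. The PA+NTP libraries were the highest and the LA libraries, with LA+NTP replicate 1, the lowest. The direct contrast of PA with LA gave 0.32 ± 0.07 (adjusted p = 0.00928, edgeR), and the concentrations of the fatty acids differed. Snrpg, an Sm ring protein, had log2 fold changes of 0.07 under PA (adjusted p = 0.641) and -0.38 under LA (adjusted p = 0.0133), with 81.9 and 79.3 FPKM in Vehicle, 85.1 and 80.8 under PA, 90.2 and 113 under PA+NTP, 63.7 and 56.1 under LA, and 83.8 and 89.0 under LA+NTP. The LA libraries were the lowest of the 10 and the PA+NTP libraries the highest. In CPM, Snrpg was at 29.6 and 28.5 in Vehicle and at 31.5 and 29.7 under PA, a gap far smaller than the spread within either group. Its direct contrast was 0.45 ± 0.11 (adjusted p = 0.0189). In both genes part of the sequence is shared with other genes (49.0% and 19.6% of 31-base words).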

How the results depend on the processing

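Of the members called with the fold rule, edgeR gave 9 in PA against Vehicle (7 higher), 7 in LA against Vehicle (4 higher), 8 in PA+NTP against PA (2 higher) and 17 in LA+NTP against LA (7 higher). Leaving out 1 library at a time gave 9 to 14, 6 to 10, 8 to 11 and 16 to 17 in that order, where 14 was without PA replicate 2 and 10 without LA replicate 1, and 0 in all other contrasts. In those fits the lone library of a group is assumed to vary like the others. With the GC trend removed the counts were 8, 4, 5 and 8. Single values were followed for the called members with the largest change, at most 12 per contrast, which gave 36 values. Some calls of LA+NTP against LA were therefore not followed. Of the 36, 9 kept the fold and adjusted p, while 27 kept the direction and were no longer called. In 24 of these 27 the adjusted p was still under 0.05, and the others were Sf3a2 under PA and Lsm5 in both NTP contrasts. Srsf4 with NTP on linoleate, a call outside the 36, did not pass after GC correction either, as given above. With limma on log2(FPKM + 1) the counts were 7, 4, 5 and 15, and on log2(FPKM + 0.1) 8, 6, 5 and 15. The rule coded after NOISeq called 0 members in every contrast it was run on. It was not the published program and was not scored over all genes, so no share of all genes stands beside this 0. What the authors' own NOISeq run called among the members cannot be read from it. Without a fold threshold there were 54, 48, 50 and 52, then 4 for PA+NTP and 0 for LA+NTP against Vehicle and 14 for PA against LA, and with the GC trend also removed (chosen after seeing the data) 38, 30, 32, 36, 3, 0 and 13. DESeq2 gave 9, 7, 11 and 17, and library-size scaling 6 (4 higher), 6 (2 higher), 6 and 15. The cause of these shifts was not tested beyond their construction. Fits with replicate number as a block gave 9, 8, 9 and 17, and 8, 4, 5 and 8 with the block and the GC trend removed. The deviations of same-numbered libraries correlated between -0.085 and 0.129 over 10 pairs of groups, so the numbers do not pair the libraries. None of the 36 values changed direction under any alternative run, but other values did with the GC trend removed, among them those printed for Tra2b, Snrpb2, Lsm4, Snrpa, U2af2 and Hnrnpl. With 2 libraries a group and totals that differ 4.57 times, small changes are poorly resolved, above all in Srsf12 and Lsm11.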
